A study of Mus musculus with 16 samples.

Results

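The genes described here are 91 that encode subunits of the mitochondrial respiratory chain and a few of their close relatives, out of 18193 genes named on the array. They were taken by name. Every probe set (the group of short DNA probes that reads 1 transcript on an Affymetrix array) whose platform annotation gives 1 symbol alone was kept if that symbol starts with Ndufa, Ndufb, Ndufc, Ndufs, Ndufv, Uqcr, Cox4, Cox5, Cox6, Cox7, Cox8 or Atp5, or is Sdha, Sdhb, Sdhc, Sdhd or Cyc1. That gave 180 probe sets, and each gene was read from its set of highest mean over all 16 arrays. The rule uses names and mean levels. The first prefix also brought in 8 Ndufaf genes, whose products help to assemble complex I without staying in it. Of the 91 chosen probe sets, 17 have an Affymetrix name that marks sequence shared with other transcripts.

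The arrays came from 3 groups of mice on a C57BL/6 background. Nontransgenic B cells and Emu-xbp-1s B cells were taken from the spleens of 20-week-old animals by magnetic beads against B220, a B cell surface protein, with 5 samples each. The third group was 6 samples of Emu-xbp-1s MM, the myeloma tumors that such transgenic mice develop, for which the labels give no age and no cell sort. The study describes frank MM in mice far older than the B cell donors, so age and tumor cannot be told apart here. The transgene encodes the spliced form of the transcription factor XBP-1, with eGFP behind it, and is driven by an immunoglobulin heavy chain promoter and the Emu enhancer, which act in B cells and in some T cells. The study used 2 founder lines, and the labels do not say which line a sample came from. Whether each tumor sample is from a mouse of its own is not stated either. The p-values weigh a difference of group means against the spread between these samples, and part of that spread may be technical. If tumor samples shared a mouse, the p-values of the MM comparisons would be too small.

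The respiratory chain sits in the inner membrane of the mitochondrion. Complexes I and II take electrons from NADH and succinate, complex III hands them to cytochrome c, and complex IV passes them to oxygen, while complexes I, III and IV move protons out of the matrix. Complex V, the ATP synthase, lets the protons back in and makes ATP. Nearly all of the subunits are encoded in the nucleus and a few in mitochondrial DNA. When a B cell becomes an antibody-secreting plasma cell, its demand for ATP and its mitochondrial activity are known to rise.

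Values are intensities on a linear scale. Differences are on the log2 scale after values under 50 were set to 50, and they were tested with limma at an adjusted p under 0.01. The arrays differed in RNA quality. The 3'/5' ratio of the Gapdh control probes, which grows when RNA is degraded, was 0.867 to 0.926 in nontransgenic B cells, 2.41 and 1.97 in Emu-xbp-1s B cell replicates 3 and 4 against 0.92 to 1.06 in the other 3, and 0.931 to 1.03 in MM replicates 1, 2 and 3 against 1.28 to 1.50 in replicates 4, 5 and 6. They also differed in cell content. All 9 T cell markers tested and 7 of 9 neutrophil markers were called higher in Emu-xbp-1s than in nontransgenic B cells. The summed intensity of the B cell marker list was 32767 to 36099 in nontransgenic B cells, 13699 to 27789 in Emu-xbp-1s B cells and 729.6 to 13970.3 in MM, lowest in MM replicates 4 and 5, where the neutrophil list summed to 78485 and 54267 against 1162 to 2591 in the other 4. The erythroid list summed to 26292 and 37589 in the same samples, against 275 to 966 in the other 4, and to 11478 in Emu-xbp-1s B cell replicate 3, against 1377 to 3695 in the other 4 of that group. Xbp1 itself was not called different in any comparison, with mean intensities of 2067 ± 250.3 (SD, n = 5), 2603 ± 460.5 (SD, n = 5) and 2650.4 ± 1404 (SD, n = 6), and it was not checked whether its probe set reads the transgene.

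Emu-xbp-1s B cells were compared with nontransgenic B cells to ask whether enforced XBP-1s changes transcripts of the chain before tumors form. None of the 84 members tested passed limma's adjusted threshold in either direction, where 3.28% of the 10436 named genes tested were called higher and 0.192% lower. Before adjustment 7 members had p under 0.05 and a higher mean and 2 a lower one, or 8.33% and 2.38%, beside 12.0% and 6.98% of the named genes tested. The median log2 difference was 0.09 over the members and -0.02 over the named genes tested. Of the members, 57 were above 0 (67.9%, against 47.3% of the named genes tested).

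The members closest to the threshold were a pair of complex V subunits. Atp5h, which encodes subunit d of the peripheral stalk, had intensities of 1335, 1444, 1232, 1587 and 1178 in the nontransgenic B cells and 2136, 1888, 2479.7, 1947 and 1514 in the Emu-xbp-1s B cells. Only Emu-xbp-1s replicate 5 lay within the nontransgenic range, and the log2 difference was 0.55 ± 0.15 (SE), adjusted p = 0.0507, by limma. Atp5md, a small accessory subunit that holds synthase dimers together, stood at 819, 736, 873, 881 and 799 against 960.4, 945, 1209.7, 1110.4 and 1087. Its groups did not overlap, and the difference of 0.37 ± 0.12 (SE) still missed the threshold (limma's adjusted p = 0.0934). On the other side, Sdhd, a membrane anchor of complex II, read 766, 767, 645, 629.5 and 736 in nontransgenic and 725, 597, 535, 289 and 496 in Emu-xbp-1s B cells. Replicate 4 was the lowest, replicate 1 lay within the nontransgenic range, and the log2 difference was -0.48 ± 0.21 (SE), adjusted p = 0.232, by limma.

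By role, the membrane arm of complex I was grouped with other accessory subunits, Ndufa9 among them. Of the tested members of this group, 20 of 22 had log2 differences above 0, with a median of 0.16. So did all 7 of the N module, the tip that oxidizes NADH, with a median of 0.14. Of the named genes tested, 47.3% were above 0. The Fo and stalk part of complex V had a median of 0.26 and complex IV one of 0.15. Complex II, complex III, the Q module of complex I (where electrons reach ubiquinone) and the F1 head of complex V had medians of 0.00, -0.03, -0.01 and -0.03. Those 4 medians were higher without the arrays of high 3'/5' ratio. Without Emu-xbp-1s replicates 3 and 4, an alternative chosen after the data were seen, they were 0.10, 0.15, 0.14 and 0.19. The median over all members was then 0.17, beside 0.04 over the named genes tested, and again no member was called. The arrays kept include replicate 1, on which 51 of 85 members were highest in that group. The other roles are not given for this alternative, and the part of RNA quality was not tested.

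**Figure D1:**
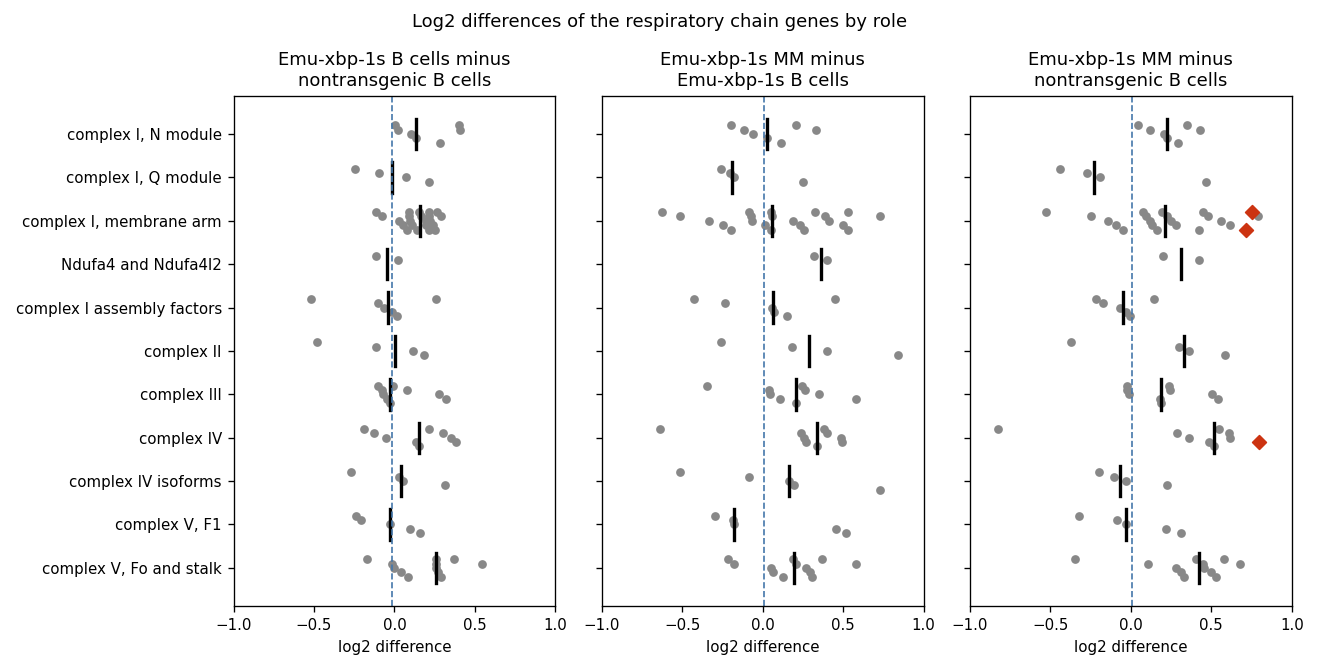
Log2 differences (horizontal axis) of the tested members by role (rows) in the 3 comparisons. Each point is 1 gene, red diamonds passed limma's adjusted threshold, black bars are the medians of a role and the dashed line is the median of all named genes tested. The row named for the membrane arm also holds other accessory subunits of complex I. In MM against nontransgenic B cells, complex IV has a median of 0.52, the Fo and stalk part 0.42 and the Q module -0.23.

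In MM against nontransgenic B cells, 3 of 84 members rose and none fell by limma's adjusted p, or 3.57% of the members, beside 4.66% of the 11079 named genes tested called higher and 4.76% called lower. All 3 encode small accessory subunits: Ndufa1 and Ndufb9 of complex I and Cox7a2 of complex IV. Before adjustment, 30 members reached p under 0.05 on the higher side and 3 on the lower, or 35.7% and 3.57%, where 16.7% and 17.7% of the named genes tested were. The MM and nontransgenic values did not overlap for 16 higher members (19.0%, against 7.65% of the named genes tested) and for 1 lower member (1.19%, against 8.77%). The median difference was 0.22 over the members and 0.01 over the named genes tested.

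Ndufa1, an accessory subunit at the junction of the arms of complex I, ranged in MM from 2429, with a median of 3057, to 3748, with intensities of 1667, 2015, 1779, 2014 and 1707 in nontransgenic and 2366, 2015, 2357, 1874 and 2052 in Emu-xbp-1s B cells. Every MM sample was above every B cell sample, and the difference from nontransgenic B cells was 0.72 ± 0.15 (SE), adjusted p = 0.00632 by limma, or 1.64-fold. Ndufb9, a membrane arm subunit that anchors the mitochondrial acyl carrier protein, ranged in MM from 901, with a median of 1225, to 1375, against 603, 774, 735, 788 and 595 in nontransgenic B cells and 1065, 917, 741, 697 and 687 in Emu-xbp-1s B cells. MM stood clear of the nontransgenic samples, by 0.75 ± 0.16 on the log2 scale (SE, limma's adjusted p = 0.00602), while Emu-xbp-1s replicates 1 and 2 reached into the MM range. Of its 3 probe sets, 2 were called higher. Cox7a2, the widely expressed isoform of subunit VIIa of complex IV, ranged in MM from 2876, with a median of 3221, to 5229. Its values in nontransgenic B cells were 1897, 2132, 2108, 2266 and 1879.7, and those in Emu-xbp-1s B cells 2665, 2404, 2739, 2382 and 2478. The 3 groups did not overlap, with MM above both B cell groups and highest in replicates 5 and 6, and MM differed from nontransgenic B cells by 0.80 ± 0.18 (SE, limma's adjusted p = 0.00899). Of its 2 probe sets, 1 was called; the other averaged 1396 in nontransgenic B cells and 2091 in MM.

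These 3 calls depend on single arrays. With any 1 of the 5 nontransgenic arrays left out, no member was called, 1 was called without MM replicate 2, 4 or 5, and 7 were called without MM replicate 6. Beside them, markers of stroma (5 of 9 tested stroma and muscle genes) and of mitosis (8 of 9 tested) were also called higher in MM than in nontransgenic B cells, as were 2 of 9 macrophage markers (C1qa and Lyz2), while 4 of 9 B cell markers and 1 of 6 plasma cell markers (Irf4) were called lower. The macrophage list summed to 7404 to 29725 in MM and 2952 to 4749 in nontransgenic B cells. The summed mitosis list was 3226 to 19390 in MM and 1012 to 2828 in nontransgenic B cells. The part of cell content and of cell division in the 3 differences was not tested, and in RNA of whole samples fewer cells of a type and less RNA per cell cannot be told apart.

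Just outside the threshold stood Cox7c, the single member of the opposite direction with no overlap. It encodes subunit VIIc of complex IV, and ranged in MM from 83.2, with a median of 107, to 155, against 182, 167, 229, 186 and 223 in nontransgenic B cells (log2 difference -0.83 ± 0.19 (SE), adjusted p = 0.0104, by limma). Its probe set is dim and has a name that marks shared sequence. Ndufb6 and Ndufab1 lay just outside on the higher side, with adjusted p-values of 0.0105 and 0.0121, and Cox7a2, with 0.00899, just inside.

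**Figure D2:**
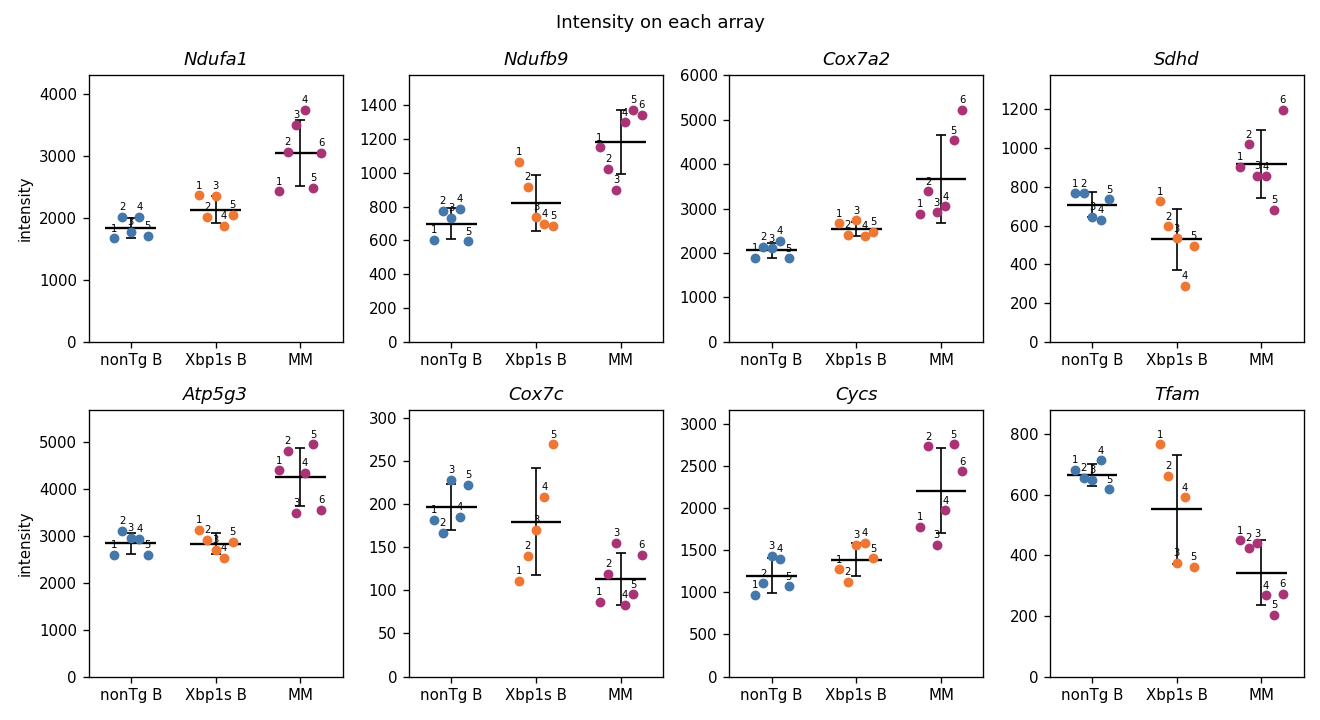
Intensity (vertical axes, linear scale from 0) of 8 genes on each of the 16 arrays, with the replicate number over each point, for nontransgenic B cells (nonTg B), Emu-xbp-1s B cells (Xbp1s B) and MM. Bars are means and error bars SDs (n = 5, 5 and 6). For Ndufa1 and Cox7a2 all 6 MM points lie above all 10 B cell points, and for Tfam all 6 lie below the 5 nontransgenic points.

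The sequence before the start site of 6 members is shown as context, from RefSeq's annotation of GRCm38.p6. A promoter window of 250 bases before and 50 after the start was found for 74 of the 91 members, and the last 100 bases before the start are printed, 5′ to 3′ on the gene's strand. Capitals mark matches, on either strand, to the letters of 4 motifs known from genes of the respiratory chain: GCGCATGC (NRF1), CCGGAAG (ETS factors such as GABP), AAGATGGC (YY1) and AAGGTCA (estrogen-related receptors). Ndufa1 and Cox7a2 were called in MM, Sdhd and Atp5g3 came nearest between MM and Emu-xbp-1s B cells, and Sdhb and Atp5j were added as examples of the NRF1 and YY1 letters, not for a difference.
Ndufa1, chrX:37191239-37191338, minus strand: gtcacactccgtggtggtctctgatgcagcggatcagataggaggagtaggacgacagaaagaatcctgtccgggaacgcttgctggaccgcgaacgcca
Cox7a2, chr9:79759854-79759953, minus strand: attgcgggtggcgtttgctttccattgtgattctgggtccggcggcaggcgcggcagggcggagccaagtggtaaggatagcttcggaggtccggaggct
Sdhd, chr9:50603850-50603949, minus strand: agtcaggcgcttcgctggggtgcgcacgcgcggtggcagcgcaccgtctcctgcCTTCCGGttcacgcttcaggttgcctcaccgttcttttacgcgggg
Atp5g3, chr2:73911327-73911426, minus strand: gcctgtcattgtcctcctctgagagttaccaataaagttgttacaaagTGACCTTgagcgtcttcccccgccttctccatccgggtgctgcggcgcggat
Sdhb, chr4:140961171-140961270, plus strand: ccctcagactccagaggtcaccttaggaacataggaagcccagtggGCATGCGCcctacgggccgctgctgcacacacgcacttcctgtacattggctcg
Atp5j, chr16:84834977-84835076, minus strand: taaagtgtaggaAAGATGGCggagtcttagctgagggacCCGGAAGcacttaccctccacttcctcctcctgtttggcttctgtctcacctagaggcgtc

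The ETS letters of Sdhd begin 46 bases before the start, the receptor letters of Atp5g3 52 bases, and the NRF1 letters of Sdhb 54 bases before it. In Atp5j the YY1 and ETS letters begin 88 and 61 bases before the start. Past the start, and so not printed, Sdhb also holds the ETS letters and Sdhd the receptor letters, and a second start of Atp5j has a window with none of the 4. The windows of Ndufa1 and Cox7a2 hold none of these letters, which says nothing of what binds there, and Ndufb9 had no window. Over the 74 members with a window, 14.9% held the NRF1 letters, 25.7% the ETS letters, 13.5% the YY1 letters and 10.8% the receptor letters. Over windows of the same length of 17491 protein-coding genes, the shares were 3.93%, 12.9%, 3.57% and 4.73%. The NRF1 letters nearly read the same on both strands, so that a 10-base run can match on each, and was counted as 1 gene. A match is a description of the sequence and not evidence of binding in these cells.

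MM and Emu-xbp-1s B cells both carry the transgene, and the comparison asks what differs between the tumors and splenic B cells of such mice. Of 85 members tested, none passed limma's adjusted threshold, where 1.49% of the 11241 named genes tested were called higher and 1.67% lower. Before adjustment, 13 members reached p under 0.05 on the higher side and 2 on the lower (15.3% and 2.35%), beside 12.1% and 15.0% of the named genes tested. The median log2 difference was 0.18 over the members and 0.01 over the named genes tested.

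Atp5g3, Sdhd and Ndufab1 came closest. Atp5g3, 1 of the genes for subunit c of the proton-driven rotor, ranged in MM from 3486, with a median of 4361, to 4939, against 3115, 2915, 2694, 2528 and 2859 in Emu-xbp-1s B cells. All MM samples were above all of these, by 0.58 ± 0.15 (SE), adjusted p = 0.033 in limma's test. For Sdhd the MM range was 683, with a median of 879.9, to 1199, set against the low Emu-xbp-1s values above. MM replicate 5 overlapped them, and the difference was 0.84 ± 0.24 (SE), adjusted p = 0.0407 by limma. Against nontransgenic B cells the difference of Sdhd was 0.36 (limma's adjusted p = 0.126), and its mean was lowest in the Emu-xbp-1s B cells. The dimmer of its 2 probe sets had another order, with means of 122 in nontransgenic B cells, 172 in Emu-xbp-1s B cells and 200.1 in MM. Ndufab1, the mitochondrial acyl carrier protein, ranged in MM from 617, with a median of 811, to 940.3 and read 596, 542, 288, 539 and 524 in Emu-xbp-1s B cells, the lowest on replicate 3. Its difference was 0.73 ± 0.21 (SE), adjusted p = 0.0442 by limma. At an adjusted p under 0.05 these 3 members would be called.

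Within complex I, the core subunits read here did not pass the test. Ndufv1, which binds the flavin that takes electrons from NADH, averaged 488 ± 48.4, 595 ± 68.3 and 579.9 ± 121 (SD, n = 5, 5 and 6) in nontransgenic B cells, Emu-xbp-1s B cells and MM. Its other probe sets averaged 532, 486 and 516, in another order, and 226, 279 and 237. Ndufs1, the largest iron-sulfur subunit, averaged 402 ± 39.3, 407 ± 36.7 and 428 ± 112, with a 95% interval of -0.40 to 0.49 for the log2 difference between MM and nontransgenic B cells. That interval leaves room for a shift of either sign. Ndufs7, which carries the last iron-sulfur cluster before ubiquinone, stood at 666 ± 85.8, 642 ± 187 and 559 ± 125. Its other probe set averaged 492, 663 and 435. Ndufa9, an accessory subunit and not a core one, at the foot of the peripheral arm, stood at 424 ± 51.3, 441 ± 119 and 471 ± 159. Neither passed the test in any comparison. In the membrane arm, Ndufb8 averaged 804 ± 71.7, 934 ± 93.5 and 1096 ± 112 (difference of MM from nontransgenic B cells 0.45 ± 0.13 (SE), adjusted p = 0.0292, by limma), and no MM sample overlapped a nontransgenic one.

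The 4 members of the Q module had a median difference of -0.23 between MM and nontransgenic B cells. The N module had 0.22, and the membrane arm with other accessory subunits 0.21. Of the 4, 3 were below 0, and Ndufa5 was above it by 0.47. Ndufa5 ranged from 286 to 361 in MM and from 207 to 300 in nontransgenic B cells. Ndufs8, an iron-sulfur subunit of this module, ranged in MM from 606, with a median of 876, to 1274, against 1071 to 1267 in nontransgenic B cells, with the low values on MM replicates 4, 5 and 6 and also on Emu-xbp-1s B cell replicates 3 and 4 (610.0 and 832). Those are the arrays of high Gapdh 3'/5' ratio. The beta-actin ratio of MM replicate 4, 1.19, was below that of MM replicate 3, 1.28. MM replicates 4 and 5 are also the samples with the high neutrophil and erythroid sums. Without MM replicates 4, 5 and 6 the median of the module was -0.02. The parts of RNA quality and of cell content were not tested.

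None of the 4 subunits of complex II passed the test in any comparison. Sdha, the flavoprotein that oxidizes succinate, averaged 1067 ± 117, 1012 ± 278 and 886 ± 344 (SD, n = 5, 5 and 6), and ranged in MM from 385, with a median of 907, to 1238, lowest on replicate 6. Sdhb, the iron-sulfur subunit, averaged 1173 ± 90.6, 1278 ± 173 and 1470.5 ± 315. Sdhc, the other membrane anchor, averaged 390.0 ± 68.2, 459 ± 162 and 586 ± 106, with a difference of 0.58 ± 0.17 (SE), adjusted p = 0.0295 between MM and nontransgenic B cells by limma. Its other probe set averaged 410, 405 and 481, with a smaller rise in MM and none in Emu-xbp-1s B cells. By the chosen probe sets, the MM differences from nontransgenic B cells on the log2 scale ran from -0.37 for Sdha to 0.58 for Sdhc. Whether they differ from each other was not tested.

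In complex III, Uqcrc1 and Uqcrc2, the core proteins, averaged 868 ± 111 and 678 ± 125 in nontransgenic B cells, 850.5 ± 255 and 842 ± 123 in Emu-xbp-1s B cells, and 879.7 ± 248 and 669 ± 129 in MM. Their log2 differences between MM and nontransgenic B cells were both -0.02, with 95% intervals of -0.49 to 0.44 and -0.42 to 0.37. The other probe set of Uqcrc2 averaged 736, 715 and 702 in nontransgenic B cells, Emu-xbp-1s B cells and MM, without the higher mean in Emu-xbp-1s B cells. Uqcrfs1, the Rieske iron-sulfur protein, averaged 945 ± 91.6, 975 ± 309 and 1124 ± 200.5, and Cyc1, cytochrome c1, averaged 1037 ± 108, 1092 ± 96.7 and 1199.5 ± 263. None of these 4 passed the test. Among the small subunits, Uqcrq and Uqcr11 came nearest in MM against nontransgenic B cells, with differences of 0.50 and 0.54 and limma's adjusted p-values of 0.0237 and 0.021, and no overlap between the groups.

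Complex IV had the highest median of any role in MM against nontransgenic B cells, 0.52 over 9 members. Of these, 8 were above 0 (88.9%, against 50.7% of the named genes tested). Cox4i1, the ubiquitous isoform of the regulatory subunit IV, ranged in MM from 3362, with a median of 3881, to 4005, against 2864, 3212, 3002, 2916 and 2699 in nontransgenic and 3295, 3182, 2137, 2218 and 2808 in Emu-xbp-1s B cells. MM was above all B cell samples, with a difference from nontransgenic B cells of 0.36 ± 0.12 (SE), adjusted p = 0.0497 by limma, and the lowest B cell values were those of Emu-xbp-1s replicates 3 and 4. Cox5a averaged 1667 ± 251, 2156 ± 150.0 and 2549.8 ± 315 (SD, n = 5, 5 and 6), and 1 of its 3 probe sets, not the brightest, was called higher in MM than in nontransgenic B cells. Cox6a1, the ubiquitous isoform of subunit VIa, stood at 2566 ± 166, 2979.8 ± 318 and 3787 ± 1471. Its highest MM values were those of replicates 4 and 5 (4827 and 6301), the samples with the high neutrophil and erythroid sums. The other probe set of Cox6a1 averaged 1497, 1868 and 1863, with no rise from Emu-xbp-1s B cells to MM. Cox8a averaged 1701 ± 169, 1679.9 ± 441 and 2104 ± 421, and did not pass.

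The median of complex IV between MM and nontransgenic B cells was 0.34 without MM replicates 4 and 5 and 0.47 without replicates 4, 5 and 6. Ndufa4, named as a complex I subunit and now counted in complex IV, had its 3 highest values on MM replicates 4, 5 and 6 (2121, 2614 and 2174), against 1223 to 1615 in nontransgenic B cells, and a difference of 0.42 ± 0.18 (SE), adjusted p = 0.112 by limma. Its paralogue Ndufa4l2, known as a target of hypoxia signaling, averaged 159 ± 26.8, 147 ± 22.8 and 183 ± 32.4 and did not pass.

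**Figure D3:**
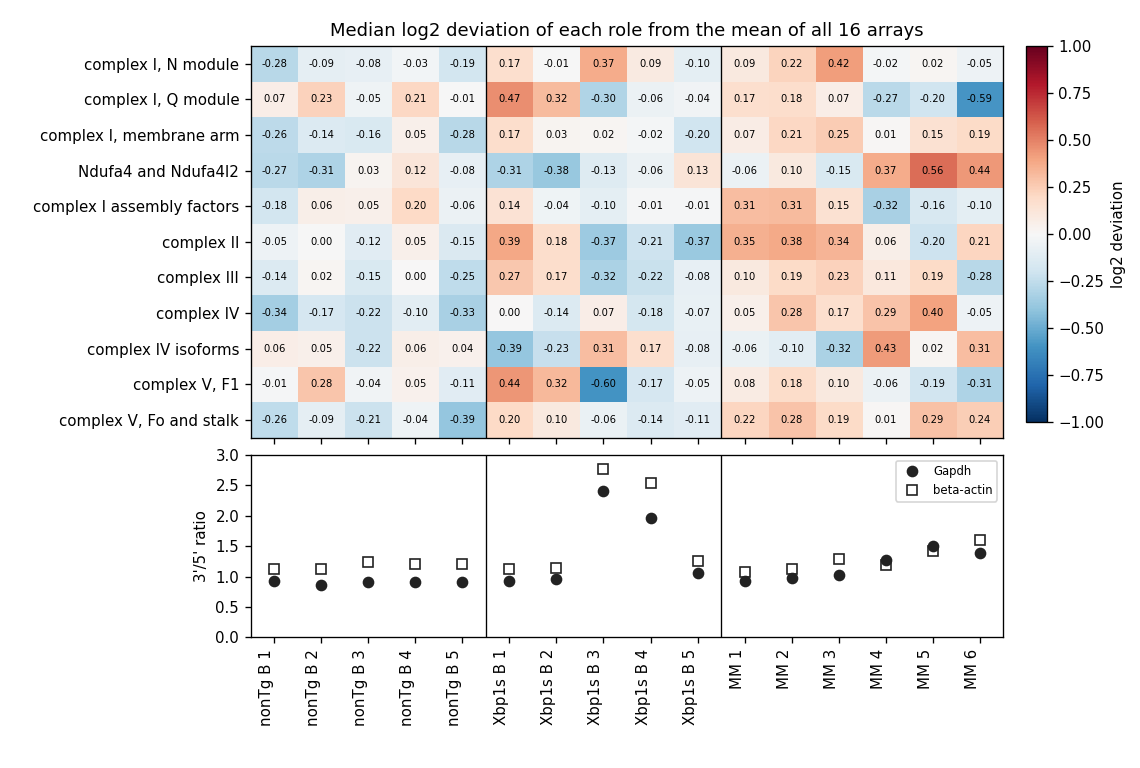
Upper panel, median log2 deviation of the tested members of each role (rows) from their own mean over all 16 arrays (columns), with the value in each cell. The membrane arm row also holds other accessory subunits of complex I. Lower panel, 3'/5' ratios of the Gapdh and beta-actin controls on the same arrays; the F1 row is lowest, at -0.60, on Emu-xbp-1s B cell replicate 3, which has the highest ratios, 2.41 and 2.76.

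Tissue isoforms of complex IV marked single MM samples. Cox6b2, the isoform of subunit VIb known from testis, read 264 and 735 in MM replicates 4 and 5 and 37.1, 20.7, 23.2 and 97.0 in the other 4, against 33.5, 30.4, 42.9, 44.5 and 68.1 in nontransgenic and 32.3, 28.1, 116, 87.1 and 64.7 in Emu-xbp-1s B cells. Thus 2 of 6 tumors stood above every B cell sample and 3 were under the floor of 50. Those 2 are the samples with the high neutrophil and erythroid sums. The highest B cell value, 116, was on Emu-xbp-1s replicate 3, which had the highest erythroid sum of its group. The part of cell content was not tested. Cox7a1 and Cox8b, isoforms of heart and skeletal muscle, read 125 and 132 in MM replicate 6. In the other 15 samples they were 19.5 to 55.6 and 11.3 to 62.0. Of the muscle markers listed, Acta1, Myh4 and Tnnt3 were at or under the floor on all arrays, that of replicate 6 included. Ckm, Mb and Des, also listed, were not under it throughout any group, and their values on replicate 6 are not given here. Whether replicate 6 held muscle was not tested. Cox4i2 and Cox6a2, isoforms known from lung and from muscle, averaged 257 ± 64.3 and 113 ± 24.1 in MM against 219 ± 51.7 and 120.5 ± 16.1 in nontransgenic B cells, and did not pass. Of the 8 isoforms and relatives, 5 were bright enough to be tested between MM and Emu-xbp-1s B cells and 4 in each of the other comparisons.

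Cox7a2l, a relative of Cox7a2, had 1064 and 1017 in MM replicates 4 and 5, below all other samples, whose values ran from 1540.3 to 2786. Its difference between MM and Emu-xbp-1s B cells was -0.51 ± 0.26 (SE), adjusted p = 0.223 by limma.

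In complex V the 5 members of F1 had a median difference of -0.03 between MM and nontransgenic B cells and the 12 of Fo and the stalk one of 0.42, with 8 of the 12 higher at an unadjusted p under 0.05 (66.7%, against 16.7% of the named genes tested); the difference between the parts was not tested. The median of F1 changed sign with the scaling, to 0.03 with arrays scaled to 1 median and 0.01 after quantile normalization, while that of Fo and the stalk was 0.48 and 0.44. Atp5a1 and Atp5b, the alpha and beta subunits that form ATP, averaged 2554 ± 442 and 2402 ± 378 in nontransgenic B cells and 3031 ± 834 and 3005 ± 554 in MM. In Emu-xbp-1s B cells Atp5a1 split, with 3459 and 3173 on replicates 1 and 2 and 1328, 1659 and 1869.5 on replicates 3, 4 and 5. Atp5b split in the same way (3254, 2865, 1199.7, 1616 and 2054). The Gapdh 3'/5' ratio was 2.41, 1.97 and 1.06 on replicates 3, 4 and 5, and its part in the split was not tested. The mean of this Atp5a1 probe set was lowest in Emu-xbp-1s B cells, at 2298. Its other probe sets were highest there. They averaged 1508, 1688 and 1621, and 138, 277 and 164, in nontransgenic B cells, Emu-xbp-1s B cells and MM. Atp5c1, the gamma subunit of the central shaft, averaged 1225 ± 114, 1344 ± 332 and 1166 ± 189.6, and Atp5o, which joins the head to the stalk, averaged 1077 ± 129.8, 1110.4 ± 168 and 1160.0 ± 163. Neither passed in any comparison.

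Subunit c, the ring through which protons turn the rotor, is encoded by Atp5g1, Atp5g2 and Atp5g3, whose mature proteins are identical. None of the 3 was called. In MM, Atp5g1 ranged from 311, with a median of 449, to 535 against 261 to 384 in nontransgenic B cells, a log2 difference of 0.40 (limma's adjusted p = 0.115). Atp5g3 differed by 0.58 (adjusted p = 0.013, by limma) with no overlap between the groups. Atp5g2 read 2308, 1871 and 2161 in MM replicates 1, 2 and 3 and 1019, 702 and 972 in replicates 4, 5 and 6, against 1526 to 1999.9 in nontransgenic B cells. The first 3 lay within or above the nontransgenic range and the last 3 below it, and the difference over all 6 was -0.35 ± 0.30 (SE), adjusted p = 0.445 by limma. MM replicates 4, 5 and 6 had Gapdh 3'/5' ratios of 1.28, 1.50 and 1.39, above those of the first 3. In Emu-xbp-1s B cells Atp5g2 was lowest on replicates 3 and 4 (1013 and 1257), where the ratio was 2.41 and 1.97. The part of RNA quality was not tested.

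**Figure D4:**
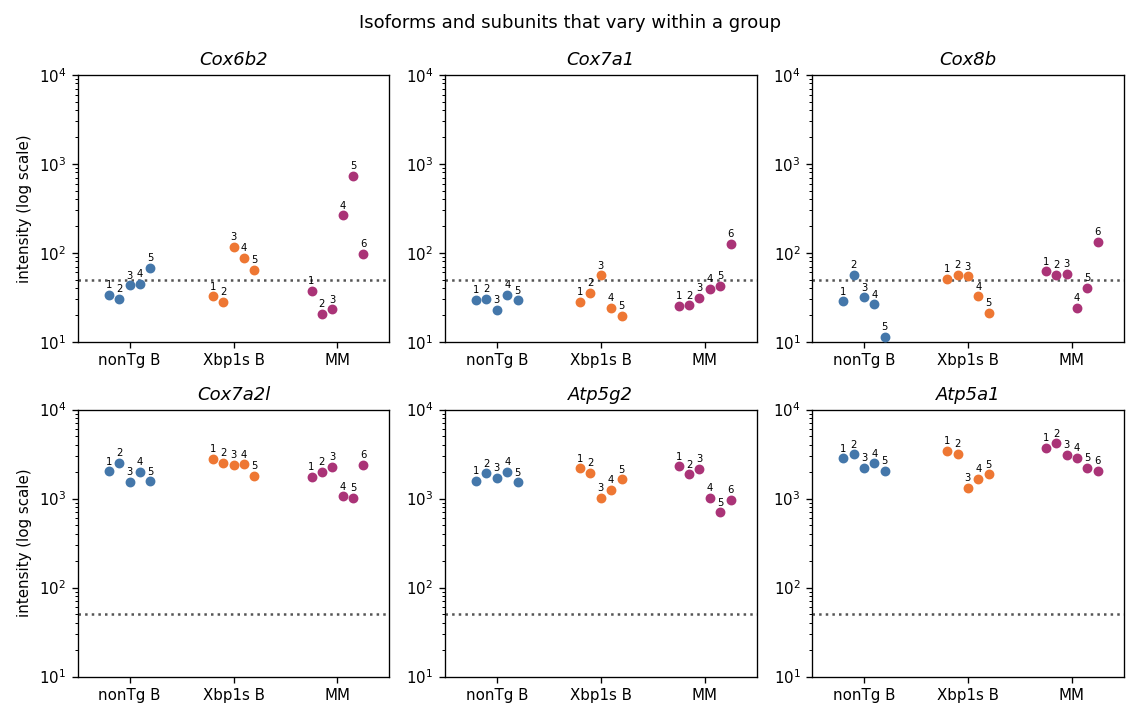
Intensity (logarithmic axes) of 3 tissue isoforms and 3 subunits on each array, with replicate numbers; the dotted line is the floor of 50. Cox6b2 is high on MM replicates 4 and 5, Cox7a1 and Cox8b on MM replicate 6, Cox7a2l is low on MM replicates 4 and 5, Atp5g2 on MM replicates 4, 5 and 6, and Atp5a1 is low on Emu-xbp-1s B cell replicates 3, 4 and 5.

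The median SD of the members on the log2 scale over samples was 0.17 in nontransgenic B cells, 0.25 in Emu-xbp-1s B cells and 0.30 in MM, beside 0.19, 0.31 and 0.44 over all 11065 named genes above the filter. Of 85 members, 47 had their highest nontransgenic value on replicate 4 (55.3%, against 23.1% of all named genes) and none on replicate 1, where 36 had their lowest (42.4%, against 30.9%). In Emu-xbp-1s B cells, 51 were highest on replicate 1, where 37.9% of all named genes were too (60.0% of the members). In MM, 33 were lowest (38.8%, against 33.6% of all named genes) and 23 highest (27.1%, against 20.1%) on replicate 6. Seen against each gene's mean over all arrays, 75 and 70 of the 85 were above it on MM replicates 2 and 3 (88.2% and 82.4%, against 59.5% and 67.5% of all named genes) and 11 on nontransgenic replicate 5 (12.9%, against 45.6%).

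Other mitochondrial genes were read from lists of the pathway. Between MM and nontransgenic B cells, 1 of 17 tested electron carriers and exchange genes rose (5.88%, against 4.66% of the named genes tested) and none fell. That was Cycs, cytochrome c, which carries electrons from complex III to complex IV. It ranged in MM from 1565, with a median of 2207, to 2759.6 and read 971, 1109, 1435, 1401 and 1074 in nontransgenic B cells, without overlap (log2 difference 0.87 ± 0.19 (SE), adjusted p = 0.00754, by limma). Of 12 tested regulators of mitochondrial biogenesis, 1 fell (8.33%, against 4.76%) and none rose. Tfam, which packages mitochondrial DNA and starts its transcription, ranged in MM from 204, with a median of 349, to 449.7 against 682, 656, 649.6, 714 and 618 in nontransgenic B cells. All MM values lay below all nontransgenic ones, lowest in MM replicates 4, 5 and 6, and the log2 difference was -1.01 ± 0.22 (SE), adjusted p = 0.00642 by limma. Emu-xbp-1s B cells stood at 766, 663, 374, 592 and 362, with replicates 3 and 5 within the MM range and replicates 1 and 2 at nontransgenic levels or above. A dim second probe set of Tfam did not show the decrease, with means of 71.2, 109 and 87.6 in nontransgenic B cells, Emu-xbp-1s B cells and MM.

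Of 75 tested genes of the mitochondrial ribosome, which makes the subunits encoded in mitochondrial DNA, 2 rose in MM against nontransgenic B cells (2.67%, against 4.66%). Mrps28 averaged 171 ± 10.7 in nontransgenic B cells and 304 ± 60.3 in MM (difference 0.81 ± 0.16 (SE), adjusted p = 0.00375, by limma), and Mrpl33 averaged 174 ± 30.4 and 289 ± 51.2 (difference 0.73 ± 0.17 (SE), adjusted p = 0.00963, by limma). Mrpl33 was also the only gene of the list called between Emu-xbp-1s and nontransgenic B cells, at 324, 313, 476, 388 and 245 against 172, 215, 150.1, 193 and 141 and a difference of 0.99 ± 0.19 (SE), adjusted p = 0.00733 by limma. Between MM and nontransgenic B cells, the calls of Cycs, Tfam and Mrpl33 were lost with any 1 nontransgenic array left out and that of Mrps28 with replicate 1, 2, 4 or 5 left out. Among the MM arrays, leaving out replicate 2, 4, 5 or 6 ended the call of Cycs, replicate 4 that of Tfam, and replicate 1, 2, 3, 4 or 6 that of Mrpl33. For Mrpl33 between the B cell groups, with Emu-xbp-1s replicates 3 and 4 left out the difference was 0.76 and limma's adjusted p 0.031. No gene of the tricarboxylic acid cycle (17 tested in MM against nontransgenic B cells, 16 in the others), of mitochondrial import (16 tested) or of other assembly factors (30 tested between the B cell groups, 31 in the others) was called. Unadjusted, 1, 1 and 0 of these were higher and 4, 2 and 5 lower in MM than in nontransgenic B cells, 1, 1 and 1 higher and 1, 1 and 5 lower in MM than in Emu-xbp-1s B cells, and 1, 0 and 0 higher and 1, 0 and 3 lower in Emu-xbp-1s than in nontransgenic B cells. The highest of these shares, 23.5% lower for the tricarboxylic acid cycle in MM against nontransgenic B cells, stood beside 17.7% of the named genes tested. The mitochondrially encoded ND5, a proton-pumping subunit of complex I and the only such gene with a named probe set in the list, did not pass in any comparison (log2 difference between MM and nontransgenic B cells -0.28 ± 0.20 (SE), adjusted p = 0.334, by limma).

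For 6 members no comparison could be tested. Ndufb4, Ndufaf5, Ndufaf6, Cox7a1, Cox7b2 and Cox8b exceeded 100 on no more than 20% of the arrays, and Cox6b2 was tested only between MM and Emu-xbp-1s B cells. For these no statement on a difference can be made at this signal.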

How the data were processed

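RNA of 16 samples was hybridised to Affymetrix 430 2.0 arrays. The deposited table holds 1 intensity per probe set and array; the authors used dChip, scaling every array to the one of median brightness and fitting its perfect match minus mismatch model. Presence calls and depth do not enter here. Groups and replicate numbers came from the sample titles. Values were raised to a floor of 50 and logged (log2). A probe set was tested if it exceeded 100 on over 20% of the arrays of a comparison, both groups pooled. limma 3.58.1 (R 4.3.3) fitted the pairs of groups separately (lmFit and eBayes, Benjamini-Hochberg over all probe sets tested, threshold 0.01) in place of the SAM test of the study's methods. The 64 control probe sets were left out. Background counts are over named genes, each by its brightest probe set. Described genes were those past the threshold with no overlap (the 10 largest a direction), a fixed set by role and called genes of the pathway lists, and others are named for standing nearest the threshold or for their spread, after their values were seen. The members and lists were chosen with earlier results of these data known. The test was tested on simulated data. Alternatives changed the floor, pseudocount, filter, normalization, probe set rule, threshold, fit (trend and robust limma included), replicate block and samples left out. Same-numbered B cell samples correlated by 0.17 to 0.52 over 21863 probe sets, above 0.1 in all 5 pairs, and those of MM by as little as -0.27. Emu-xbp-1s B cell replicates 1 to 5 correlated best with nontransgenic replicates 2, 2, 5, 3 and 3. Only replicate 2 thus had its own number as best partner. Promoter windows are RefSeq's for GRCm38.p6. Tables and plots were made with numpy 2.4.6, matplotlib 3.10.9 and pandas 2.3.3 under Python 3.11.15.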

Additional observations from a re-analysis of the deposited data

Results flagged for a closer look

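In 116 groups of log2 values checked after the floor of 50 was applied, 5 held a sample whose gap to the nearest other exceeded Dixon's critical value, and chance flags about 1 in 20 groups. In 4 of the 5 every other sample was under the floor, so that any single value above 50 would have been listed; the exception is Cox8b in MM. All 5 are dim tissue isoforms of complex IV. Cox7a1 read 125 in MM replicate 6, against 25.2 to 42.4 in the other MM samples, and 55.6 in Emu-xbp-1s B cell replicate 3, against 19.5 to 35.4. Cox8b read 132 in MM replicate 6, against 24.1 to 62.0, and 56.5 in nontransgenic replicate 2, against 11.3 to 31.6. Cox6b2 read 68.1 in nontransgenic replicate 5, against 30.4 to 44.5. The 3 values outside MM stand just above the floor of 50.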

How the results depend on the processing

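Between MM and nontransgenic B cells, the count of 3 higher members was 9 with a floor of 100, 9 with a pseudocount of 50, 6 after quantile normalization, 7 after median scaling, 6 with the probe sets of each gene averaged, 21 at an adjusted p under 0.05 and 9 with all 3 groups in a single fit. It was 7 without MM replicates 1, 2 and 3, 13 without MM replicates 4, 5 and 6 (chosen after the data were seen), 3 without replicates 4 and 5, and 0 to 7 with single arrays left out. The count of 0 lower members was 1 (Cox7c) with a floor of 100, after quantile normalization, with the mean of probe sets and at an adjusted p under 0.05, 3 (Atp5g2, Cox7c and Ndufs8) without MM replicates 1, 2 and 3, and 0 to 1 with single arrays left out. Between MM and Emu-xbp-1s B cells, 3 members were higher at an adjusted p under 0.05 and 2 in the single fit, where the main count was 0. Between the B cell groups the 1 call under any alternative was Ndufb4, lower with no filter on low values, at intensities of 44.8 to 56.3 and 60.5 to 65.0 near the floor. No called difference of a named gene changed direction, while the median of complex V F1 between MM and nontransgenic B cells, -0.03, took both signs. For the replicate block, the numbers of the B cell groups were taken as pairs, though no label pairs them, and changed no count there. The MM numbers were blocked in the same way, though no label pairs them either. With the block, 0 members were called higher in MM than in nontransgenic B cells.

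The number of arrays, 5 or 6 a group, limits precision, and the count in MM turns on members whose adjusted p lies near the threshold. Named members lost or gained a call under single alternatives: Ndufa1 was called in every alternative of scaling, floor and filter but quantile normalization (limma's adjusted p = 0.0107), Cox7a2 was not called without the filter, after quantile or median scaling or with probe sets averaged, and Ndufb9 was not called without the filter. The causes were not tested. Probe sets near the floor give no size of a difference.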
